A study of Mus musculus with 12 samples.

Results

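The immune cells of 2 mouse mammary tumours were compared, that of the Parental 4T1 line and that of Clone M. The 4T1 line is a triple-negative mammary carcinoma line of BALB/c mice, and each clone was grown out of a single cell of it. The study implanted the parental line and 5 such clones (E, M, EM1, EM2 and EM3) into the mammary fat pad of female BALB/c mice 9 to 11 weeks old and took 1 tumour of each. The clones stand for epithelial, intermediate and mesenchymal states. From each tumour there was a library of all cells (Total) and a library of cells picked with magnetic beads against CD45, a surface protein of all white blood cells. The 2 CD45 libraries compared here held 6791 cells from the parental tumour and 7595 from the M tumour, 14386 of the 115612 cells of the series. This pair was chosen because it had the lowest shares of cells annotated as CD8 T cells among the 6 tumours, so the CD8 T share is given as a description only. Cell classes are those the authors deposited, a broader column of classes and a finer column of subtypes.

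White blood cells reach a tumour by different routes and do different work there. Neutrophils, the main granulocytes, mature in the bone marrow, fill their granules in a fixed order while they do so, and are drawn out by chemokines such as Cxcl1, Cxcl2 and Cxcl3 acting on the receptor Cxcr2. Macrophages arise from tissue-resident cells or from blood monocytes, and carry genes of lipid handling, matrix breakdown and antigen presentation. CD4 T cells range from naive cells, which keep genes of recirculation and quiescence such as S1pr1 and Lef1, to activated Cd44+ helper cells and Foxp3+ regulatory T cells, while CD8 T and NK cells carry the cytotoxic granule proteins. 4T1 tumours are known for driving the output of granulocytes into blood and tumour.

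Each transcript was counted by its molecular identifier (UMI). For each class and library the counts of its cells were added up and scaled to the same total of UMIs (CPM). The difference is the log2 ratio of parental over M, computed on CPM + 10, so positive values are higher in the parental tumour. A gene was tested where it had at least 50 CPM in 1 of the libraries and at least 30 UMIs in the library with more CPM, and it is called past the fold at a log2 ratio of 1 or more, or -1 or less. With 1 tumour a side there is no test, no p-value and no spread between tumours. Intervals in brackets are 95% and cover counting error only, exact binomial for shares and exact Poisson for CPM. The Poisson intervals take each UMI as independent and leave out the spread between cells. They are too narrow where few cells hold most UMIs of a gene. The range of the other 4 CD45 libraries is given to show where each of the pair stands.

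The libraries held 28083101 UMIs from the parental tumour and 28158955 from the M tumour, with a median of 3041 and 1557 UMIs per cell over all classes. Calling doublets left out 101 and 90 cells, so 6690 and 7505 were analysed. The part of the cell barcode that marks the droplet was shared by 1112 cells of the parental CD45 and Total libraries (16.4% of the smaller library) and by 1450 cells of the M libraries (19.1%), but by only 60 cells of the 2 CD45 libraries (0.88%). No whole barcode was shared. The labels do not say which libraries were run together. If the shared droplet barcodes mark a shared run, run and tumour cannot be told apart in this pair. The last bases of the barcodes, read here as a sample tag that the labels do not describe, were the same in the parental CD45 library as in those of E and EM1, and the same in the M library as in those of EM2 and EM3. Tag and tumour cannot be told apart either, and genes whose levels divided all 6 libraries by tag are counted beside the results. A gene past the fold already has parental and M in the order that such a division needs, while the tested genes as a whole do not. The shares set side by side are therefore not alike, and an effect of the tag was not tested. The Total libraries came from the same 2 tumours, so they are a further measurement and not a further tumour. Genes with the same sign there were counted only among those past the fold. The share over all tested genes was not counted, so these counts are a description only. The fewest genes per cell in the Total libraries were 650 in parental and 451 in M, against 200 and 251 in the CD45 libraries.

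Granulocytes made up the largest difference in cell mix. They were 24.9% [23.9, 26.0] of the parental library (1666 of 6690 cells) and 50.6% [49.5, 51.7] of the M library (3797 of 7505). The other 4 tumours ranged from 11.9% to 27.5%, so the parental share lay inside their range and the M share above it. Macrophages were 51.3% [50.1, 52.6] of the parental library and 33.5% [32.4, 34.6] of the M library, against 35.6% to 50.9% in the others. Of the cells other than granulocytes, however, macrophages were 68.4% and 67.8%, a difference of 0.55 percentage points [-1.45, 2.54]. The CD4 T share of that whole was 14.7% and 13.9% (0.73 points [-0.78, 2.22]), that of dendritic cells 2.91% and 2.56% and that of the class called Other Myeloid 7.13% and 7.52%. The intervals of these 4 differences include 0. That was not so for macrophages among cells with at least 1000 UMIs, 4.52 points [2.57, 6.48], nor in the Total libraries for macrophages with Other Myeloid, 3.32 points [1.29, 5.35], and for dendritic cells, -0.78 points [-1.44, -0.105].

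**Figure D1:**
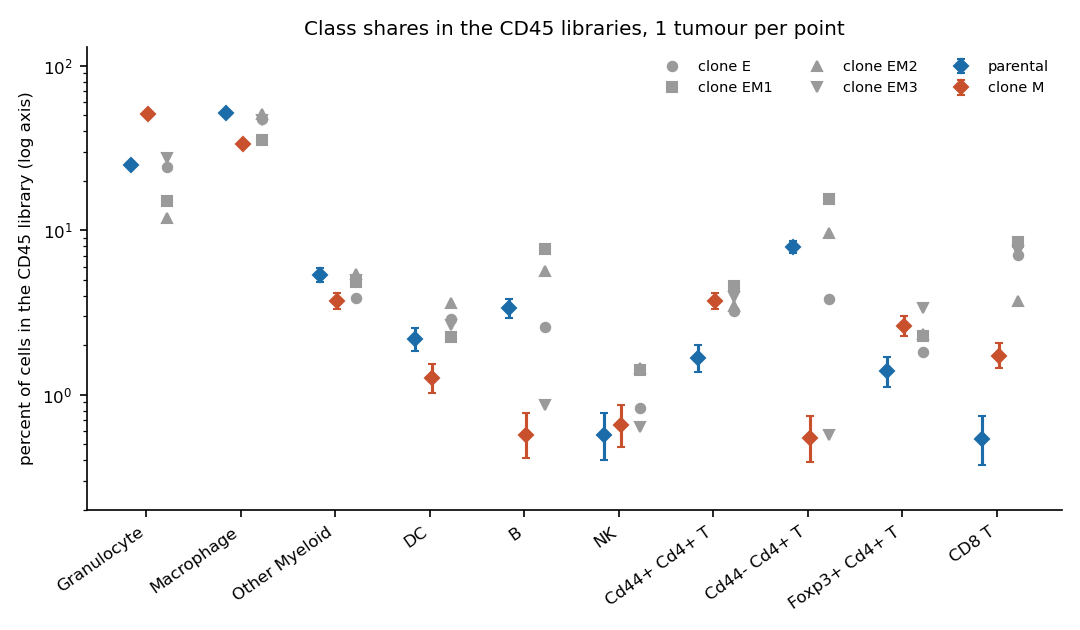
Percent of the cells of each CD45 library in each class, on a log axis. Diamonds are the parental (blue) and M (red) tumours with exact 95% binomial intervals, which cover counting error only, and grey symbols are the other 4 tumours. M stands alone for granulocytes at 50.6%, M and EM3 are both low for Cd44- Cd4+ T cells, and the parental and M tumours are lowest for CD8 T cells.

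B cells and the subtypes of CD4 T cells differed between the tumours also without the granulocytes. B cells were 3.35% [2.93, 3.81] of the parental library (224 cells) and 0.573% [0.415, 0.771] of the M library (43 cells), and 4.46% against 1.16% of cells other than granulocytes. Within the CD4 T cells, the subtype Cd44- Cd4+ T, which stands for resting cells, held 532 of 737 parental cells, or 72.2% [68.8, 75.4]. In the M tumour it held 41 of 517, or 7.93% [5.75, 10.6]. The subtype is called by the authors' label, but in M 16 of its 41 cells had a UMI of Cd8a or Cd8b1 and none of Cd4, and 8 the reverse, with 685 CPM of the Cd8 genes and 193 of Cd4. In parental 85 of the 532 cells had only Cd8 and 128 only Cd4, with 277 and 345 CPM. The Cd44+ Cd4+ subtype, activated or memory cells, held 15.2% [12.7, 18] of parental and 54.2% [49.8, 58.5] of M CD4 T cells. Foxp3+ regulatory T cells held 12.6% [10.3, 15.2] and 37.9% [33.7, 42.2]. As a share of all cells, Cd44- Cd4+ T cells were 7.95% and 0.546%, and EM3 was as low as M, at 0.567%, while the other 3 clones had 3.82% to 15.4%. All T cells were 11.9% and 9.13% of all cells, a difference of 2.76 points [1.74, 3.78], but 15.8% and 18.5% of cells other than granulocytes, a difference of -2.65 points [-4.28, -1.03]. The difference of all cells was -0.24 [-1.59, 1.11] among cells with at least 650 genes and -1.02 [-2.17, 0.134] among those with at least 1000 UMIs. Both of these intervals include 0. NK cells were 0.568% and 0.653% of all cells, a difference of -0.085 points [-0.352, 0.186], and 0.756% and 1.32% of cells other than granulocytes, a difference of -0.57 points [-1.04, -0.123]. By the finer column these differences were 0.63 [0.266, 0.997] and 0.25 [-0.343, 0.827] points.

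The CD8 T share that chose this pair was 0.538% of all cells (36 cells) in the parental tumour and 1.73% (130 cells) in M, against 3.71% to 8.49% in the other tumours. The parental value depends on the annotation. Of the parental T cells, 110 had a UMI of Cd8a or Cd8b1 and none of Cd4, and 85 of these lay in the Cd44- Cd4+ subtype and only 16 in the CD8 subtypes. In M there were 105 such cells, 72 of them in the CD8 subtypes and 16 in Cd44- Cd4+. Counted by these transcripts, CD8-type cells were 1.64% [1.35, 1.98] of the parental library and 1.40% [1.15, 1.69] of the M library. The other tumours had 4.65% to 10.4% by the same count, which is given as a description, since the pair was chosen by its CD8 T share. When every T cell with at least 500 UMIs was thinned to 500, the shares of T cells were 8.30% [6.44, 10.5] in parental and 7.42% [5.56, 9.66] in M, and 16.1% to 28.1% in the others.

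Granulocytes of the parental tumour carried more transcript of secondary granule proteins, of several chemokines and of mitochondrial genes. Those of the M tumour carried more of single signal genes such as Tnf and Csf1. Of 2936 genes tested, 87 were past the fold higher in parental (2.96%) and 36 higher in M (1.23%). Their granulocyte identity was clear in both tumours: the 10 fixed granulocyte markers summed to 162040 CPM in parental and 142010 in M. S100a8, a subunit of the calcium-binding protein calprotectin, had 59062 and 54451 CPM. Cxcr2, the receptor for the neutrophil chemokines, had 889 [841, 940] and 869 [842, 897] CPM, which overlap. Csf3r, the receptor of the growth factor G-CSF, had 2318 and 2778 CPM. Of 16 tested genes of neutrophil homing and egress none was past the fold in parental and only Icam1 was in M.

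Among the lists of neutrophil genes, the granule genes differed. Of 12 tested genes of the secondary and tertiary granules, 6 were past the fold higher in parental and none higher in M, with a list median of 0.93 against -0.09 over all tested genes. Ltf, lactoferrin, an iron-binding protein of the secondary granule, had 1503 CPM [1440, 1568] in parental and 289 [274, 306] in M, and 940, 896, 2399 and 585 in E, EM1, EM2 and EM3. Parental lay inside the range of the other tumours and M below all of them, and the log2 ratio was 2.34. Camp, the antimicrobial peptide cathelicidin, had 695 and 137 CPM (2.26), and Ngp, a neutrophil granule protein, 4066 and 1008 (2.00), with M again below the other 5 tumours for both. Chil3, a chitinase-like protein of immature neutrophils (109 and 25.6 CPM), Cd177, a surface partner of proteinase 3 (532 and 248), and Cybb, a subunit of the phagocyte oxidase (207 and 86.0), were the other 3. Ly6g, the surface marker used to sort mouse neutrophils, had 259 and 114 CPM (1.11). In contrast, the collagenase Mmp8 had 437 and 446 CPM (-0.03), and the gelatinase Mmp9 had 1163 and 1735 (-0.57). Lcn2, which binds bacterial iron carriers, had 3544 and 2046 (0.79). The Total libraries gave the same order for Ltf, at 1567 and 378 CPM, for Camp, at 831 and 197, and for Ngp, at 4311 and 1203. They held no cell under 650 genes in parental and none under 451 in M. The median granulocyte of the CD45 libraries had 435 and 563 genes. The part of these unlike limits in the Total values was not tested.

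These transcripts came from a minority of granulocytes. A UMI of Ltf was found in 76 of 1666 parental cells and 138 of 3797 M cells, and for Ngp the cells were 150 and 242. Since the median depth was 690.5 UMIs in parental and 989 in M granulocytes, cells were also thinned to 500 UMIs, leaving out 361 and 184 shallower cells. Then 4.52% [3.46, 5.79] of parental granulocytes (59 of 1305) and 2.44% [1.96, 2.99] of M granulocytes (88 of 3613) had a UMI of Ltf or Camp, against 5.16% and 4.13% unthinned. For Ngp the thinned shares were 7.66% [6.28, 9.24] and 4.12% [3.50, 4.82]. Macrophages, which should lack these genes, gave 0.0582% and 0.0398% for Ltf or Camp at the same thinned depth, with median depths of 6377 and 7664 UMIs. The intervals of the 2 tumours did not overlap for either measure after thinning.

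**Figure D2:**
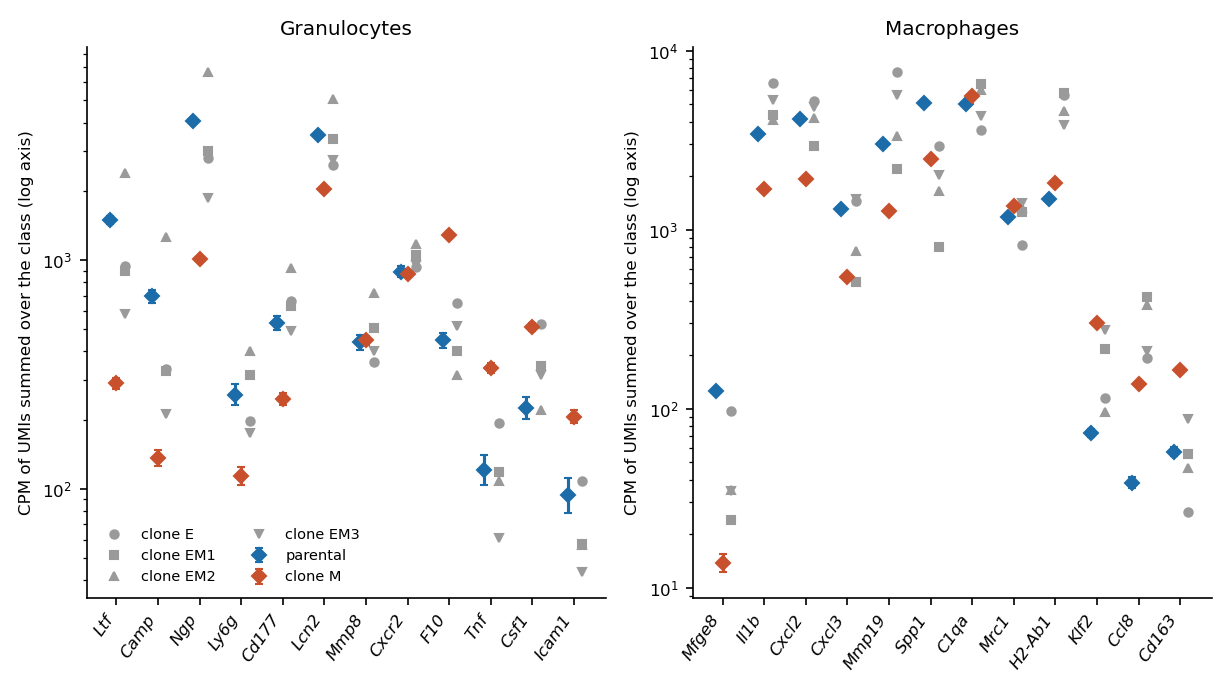
Levels of named genes in granulocytes (left) and macrophages (right) of the 6 CD45 libraries, in CPM of the UMIs summed over the class on a log axis. Diamonds are parental (blue) and M (red) with exact 95% Poisson intervals, often smaller than the symbol, and grey symbols are the other 4 tumours. M is below all others for Ltf, Camp, Ngp, Ly6g and Cd177 and above all others for F10, Tnf and Icam1, while Cxcr2 and Mmp8 are close in the pair.

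Of 11 tested chemokine genes in granulocytes, 6 were past the fold higher in parental and none higher in M, with a list median of 1.15: Cxcl3 (1269 and 357 CPM, 1.80), Pf4, Ccl24, Ccl9, Ccl6 and Cxcl14. Cxcl2, with far more transcript, had 10131 and 8335 CPM and was not past the fold. The macrophage markers were also higher in parental granulocytes, at 7774 and 3836 CPM. Their part in the chemokine values was not tested. Of 9 tested inflammatory cytokines, Osm was higher in parental and Csf1 and Tnf in M, with a list median of 0.29.

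Among genes higher in M granulocytes were F10, coagulation factor X, with 446 and 1290 CPM (-1.51, others 316 to 648), and Tnf, the inflammatory cytokine, with 121 [104, 141] and 339 [322, 356] (-1.41, others 60.8 to 193). Ltb, lymphotoxin beta, had 72.9 and 216 CPM (-1.45), Gpc3, a cell-surface proteoglycan, 22.4 and 79.0 (-1.46), and Saa3, an acute-phase protein, 629 and 1589 (-1.32). Csf1, the macrophage growth factor, had 226 and 511 CPM (-1.14), and Icam1, the adhesion ligand of leukocyte integrins, 93.9 and 207 (-1.06). Bcl6, a transcriptional repressor, had 72.9 and 191 CPM (-1.28). M was above all 5 other tumours for F10, Tnf, Ltb, Gpc3, Icam1 and Bcl6. The remaining genes that the ranking named were Ifitm10, Stfa3, Nod1, Fam167a and Slc25a37, with log2 ratios from -1.40 to -1.28. A feature with a retired identifier had the lowest ratio of all but was among those that follow the sample tags. Of 17 tested genes of the type I interferon response, 3 were past the fold higher in M (Slfn5, Ifih1 and Zbp1) and none higher in parental, with a list median of -0.49. For Zbp1, a sensor of nucleic acids, both were below the other tumours, at 18.9 and 53.9 CPM against 74.6 to 184. None of 26 tested glycolysis and hypoxia genes and none of 7 interferon-gamma response genes was past the fold, as few granulocyte genes were (2.96% and 1.23% of all tested).

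Some of the genes higher in parental granulocytes are known from other cells. The 12 macrophage markers summed to 7774 CPM in parental and 3836 in M granulocytes, with all 12 detected in both, and 4 of 10 tested were past the fold. Of 12 tested genes of the resident-type macrophage list, 7 were past the fold higher in parental, with a median of 1.04. C1qa, a complement subunit of macrophages, had 896 and 369 CPM and Apoe, the lipid carrier, 3339 and 1347. In the Total libraries the same genes in granulocytes had 302 and 295 CPM for C1qa and 1085 and 1119 for Apoe, so the pair differed in these 2 genes in the CD45 libraries and not in the Total libraries. Ctsk, the bone-resorbing protease cathepsin K, had 99.5 and 2.97 CPM (3.08), Mmp12, macrophage elastase, 166 and 26.5 (2.27), Fn1, fibronectin, 1095 and 258 (2.04), and Arg1, arginase, 388 and 103 (1.82). The chaperone genes Hspa1a (395 and 74.9) and Hspa1b (321 and 75.3) and the transglutaminase Tgm1 (65.9 and 9.13) were also among the 12 highest, with mt-Co2. Of 13 mitochondrial mRNAs 11 were past the fold higher in parental, with a median of 1.5, among them mt-Co1 at 390 and 127 CPM. The median mitochondrial share of UMIs was 0.328% in parental and 0.0890% in M granulocytes, and it was also higher in parental T cells (0.971% and 0.310%). Its part, and that of the macrophage markers, in the other differences was not tested.

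The balance of granulocyte genes was not the same under every setting. Of the 87 genes, 79 had the same sign in the Total libraries and 23 were past the fold there. Of the 36 genes, 34 had the same sign and 19 were past it. The genes that follow the sample tags were 1 of 87 and 2 of 36, against 1.4% and 1.84% of all tested genes that divided the tags in the same directions. Centring the ratios on the median of the tested genes gave 104 and 22 in place of 87 and 36. In a further setting only cells with at least 1000 UMIs were kept (358 parental and 1860 M cells) and thinned to 1000. With the same floor of 83.8 CPM for both, the counts were 53 and 120. The 24 genes named by rank kept their direction in these cells, which are part of the cells that ranked them, so this is no separate support.

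**Figure D3:**
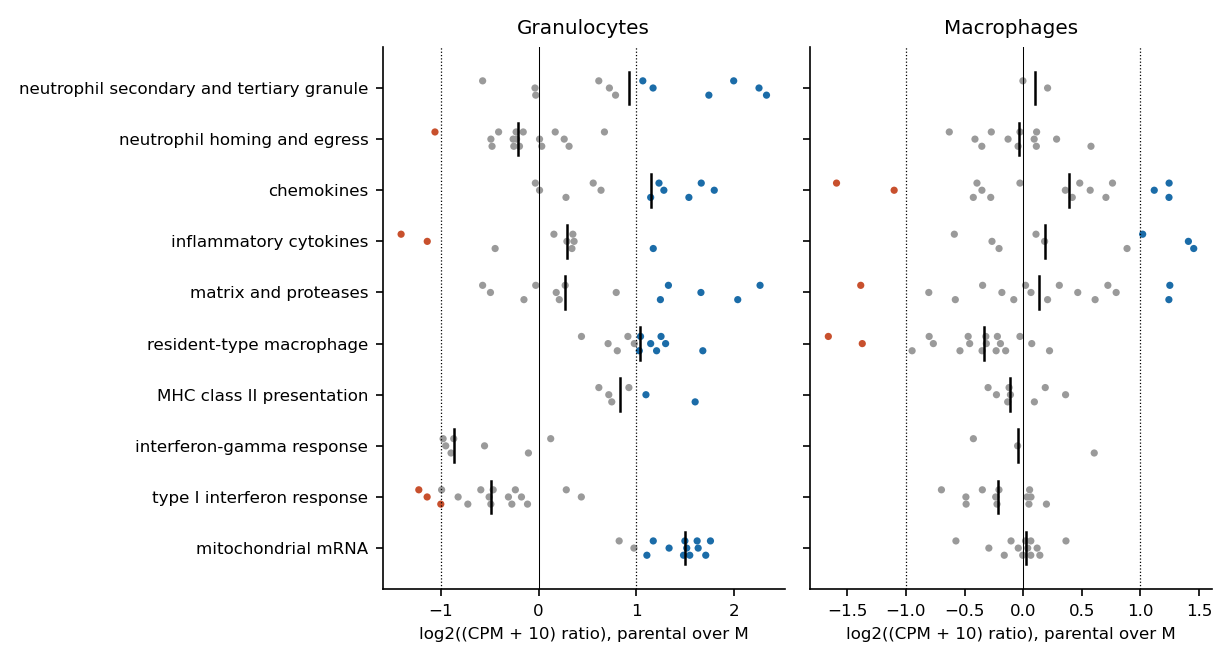
Log2 ratio of parental over M for the tested members of 10 gene lists in granulocytes (left) and macrophages (right). Each point is a gene, black bars are list medians, dotted lines mark -1 and 1, and blue and red points are past the fold higher in parental and in M. In granulocytes the list medians are 0.93 for granule genes and 1.5 for mitochondrial mRNAs, while in macrophages that of mitochondrial mRNAs is 0.02 and that of class II genes -0.11.

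Macrophages differed in fewer genes. Of 4160 genes tested, 35 were past the fold higher in parental (0.841%) and 22 higher in M (0.529%). The 12 macrophage markers summed to 54692 and 55869 CPM, and the granulocyte markers in these cells to 1228 and 1260. All 57 genes had the same sign in the Total libraries, 20 of the 35 and 13 of the 22 past the fold. The tag-following genes were 2 of 35, Mmp12 and Dgat1, and 7 of 22, among them Cbr2 and Tuba1b, against 1.32% and 2.79% of all tested genes.

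Parental macrophages carried more of 3 chemokines that draw neutrophils, although that tumour held the smaller share of them. Of 16 tested chemokine genes 3 were past the fold higher in parental and 2 higher in M, with a list median of 0.39. Cxcl1, Cxcl2 and Cxcl3 are ligands of Cxcr2. Cxcl1 had 580 and 239 CPM (1.24), Cxcl2 4163 and 1914 (1.12) and Cxcl3 1303 and 544 (1.24). For Cxcl1 parental was above the other tumours (304 to 498) and M below them. For Cxcl2 M was below all others (2931 to 5207), and for Cxcl3 both lay inside their range (511 to 1486). Il1b, the inflammatory cytokine interleukin-1 beta, had 3406 [3382, 3430] and 1676 [1658, 1694] CPM (1.02), and both were below the other tumours, which had 4067 to 6570. Thinned to 1000 UMIs, a UMI of Cxcl3 was found in 40.1% [38.4, 41.7] of parental and 23.1% [21.5, 24.8] of M macrophages, and of Il1b in 52.5% and 38.0%. The unthinned shares were 60.0% and 36.3% for Cxcl3. Il6 (50.8 and 12.2 CPM) and Areg, an epidermal growth factor receptor ligand (71.2 and 20.6), were also past the fold, so that 3 of 9 tested inflammatory cytokines were, all higher in parental. Ptgs2, the inducible prostaglandin synthase, had 564 and 197 CPM (1.47). In the Total libraries the ratio was smaller for Il1b, 0.29, and for Cxcl2, 0.54.

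Of 16 tested genes of matrix and proteases 2 were past the fold higher in parental, Mmp19 and the tag-following Mmp12, and 1 higher in M, with a list median of 0.14. The genes named by rank came from several lists or none. Mfge8, which bridges dying cells to phagocytes, had the highest ratio, with 126 CPM in parental, 13.7 in M and 23.9 to 96.7 in the others (2.52). Dcstamp, a fusion protein of osteoclasts and giant cells, had 111 and 18 CPM (2.11), Pgf, placental growth factor, 80.3 and 17.6 (1.71), and Akap5, a kinase anchor, 61.4 and 5.13 (2.24). Mmp19, a matrix metalloprotease, had 3014 and 1268 CPM (1.24) and Mmp12 had 1209 and 502 (1.25). Spp1, osteopontin, had 5084 and 2463 CPM (1.04), and parental was above the other tumours, at 799 to 2915. Il1r2, the decoy receptor of interleukin-1, had 391 and 133, Tnfrsf9, the costimulatory receptor 4-1BB, 373 and 124, and Ifitm1, an interferon-induced membrane protein, 709 and 237. Plxdc2 (2.10) and Ppp1r3b (1.40) completed the 12 highest.

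Few genes of the resident type were higher in M macrophages. Klf2, a transcription factor of quiescent cells, had 73.3 and 300 CPM (-1.90), and both were outside the other tumours, at 96.0 to 276. Cd163, the haemoglobin scavenger receptor, had 57.3 [54.2, 60.6] and 164 [159, 170] (-1.37, others 26.3 to 87.4), and after thinning a UMI of it was found in 2.49% [1.99, 3.07] and 6.55% [5.61, 7.59] of cells (unthinned 4.83% and 13.5%). With Cbr2, a carbonyl reductase that follows the sample tags (46.5 and 169 CPM), it made 2 of 18 tested genes of the resident-type list past the fold, neither higher in parental, and the list median was -0.34 against -0.04 over all tested genes. The chemokines higher in M were those that attract monocytes: Ccl8 had 38.5 and 136 CPM (-1.59) and Ccl7 101 and 228 (-1.10), but the other tumours had more Ccl8 than either, 192 to 417. The small GTPase Rhob had 617 and 1453 (-1.22). The others named by rank were Rcan1, Tuba1b, P2ry6, Olr1 and Gpr84, besides a feature with a retired identifier.

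Most antigen presentation genes were lower in macrophages of both tumours than in those of the other 4. Of 8 tested class II genes 7 had less CPM in both than in any of the others, and of 11 tested class I genes 10 did, against 226 of all 4160 tested genes (5.43%). None of 8 tested class II genes, 3 interferon-gamma response genes, 12 type I interferon genes or 22 glycolysis and hypoxia genes was past the fold, as few macrophage genes were (0.841% and 0.529% of all tested). H2-Ab1, a class II beta chain, had 1483 and 1828 CPM (-0.30), and both were below the other 4 tumours, at 3842 to 5762. Cd74, the class II invariant chain, had 6740 and 7330 CPM against 13386 to 20882. Cxcl9, the interferon-induced T cell chemokine, had 42.1 and 30.5 CPM against 180 to 550, and Cd274, the ligand of PD-1, 172 and 109 against 291 to 556. Of the macrophage state genes, C1qa had 5009 and 5558 CPM, Apoe 32481 and 30886, Mrc1, the mannose receptor, 1175 and 1346 and Arg1 2557 and 1640 (0.64), none past the fold.

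The class called Other Myeloid differed in its mix. It held 358 parental and 279 M cells, with a median depth of 5975 and 3337 UMIs, and its macrophage markers summed to 35944 and 52217 CPM. Of 4722 genes tested, 100 were past the fold higher in parental (2.12%) and 59 higher in M (1.25%). The tag-following genes were 3 of 100 and 11 of 59, against 2.9% and 3.96% of all tested genes. Several genes known from osteoclasts, the bone-resorbing cells of the monocyte lineage, were higher in parental. Most of them are in the list of lipid handling and lysosome genes, of which 7 of 21 tested were past the fold higher in parental and 2 higher in M (Cd36 and Gpnmb), with a list median of 0.17. They were grouped under this name after their values were seen. Ctsk, their cathepsin, had 3807 CPM [3725, 3890] in parental, 6.83 [3.41, 12.2] in M and 404 to 1454 in the others (7.82), from 79 and 8 cells with a UMI. Acp5, tartrate-resistant acid phosphatase, had 3274 and 303 CPM (3.39), Mmp9 2148 and 39.1 (5.46), Atp6v0d2, a proton pump subunit, 164 and 3.73 (3.67), Dcstamp 90.0 and 5.59 (2.68) and Ocstamp, a second fusion protein, 83.0 and 18.6 (1.70). Nfatc1, the transcription factor that drives this lineage, had 362 and 96.3 CPM (1.81). Mt3, a metallothionein, had 213 CPM in parental and no UMI in M, which is at least 114-fold higher against a floor of 3 counts. Thinned to 1000 UMIs, 16.3% [12.3, 20.9] of parental (49 of 301) and 0.437% [0.0111, 2.41] of M cells (1 of 229) had a UMI of Ctsk, against 3.07% and 1.56% of macrophages (unthinned 22.1% and 2.87%). For Mmp9 the thinned shares were 11.6% [8.23, 15.8] and 6.99% [4.05, 11.1], which overlap, against 6.41% and 5.55% of macrophages. For Acp5 they were 25.6% [20.7, 30.9] and 29.7% [23.9, 36.1], which overlap, although its CPM was higher in parental.

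A further part of the class was plasmacytoid dendritic cells, the main makers of type I interferon. Of 10 tested genes of that list, 5 were past the fold higher in parental: Siglech (281 and 117 CPM), Klk1 (276 and 83.9), Ccr9 (217 and 63.4), Ly6c2 (192 and 88.2) and Cox6a2 (74.6 and 25.5). A UMI of Siglech, their surface lectin, was found in 61 parental and 15 M cells. After thinning it was 19.6% [15.3, 24.5] and 6.11% [3.38, 10.0], against 0.263% and 0.0400% of macrophages (unthinned 17.0% and 5.38%). Of 18 tested resident-type macrophage genes in the class 6 were past the fold higher in M and none in parental, but 3 of the 6 follow the sample tags (Fcrls, Gas6 and Cbr2). Fcrls had 558 and 1288 CPM (-1.19), Gas6, a bridging ligand for dying cells, 96.1 and 296 (-1.53), Maf 126 and 299 (-1.18) and Stab1, a scavenger receptor, 176 and 408 (-1.17), with Gpnmb and Cbr2 the other 2. Ccl8 had 18.2 and 115 CPM (-2.15), Rsad2, an antiviral enzyme, 13.1 and 84.5 (-2.04) and Saa3 5.13 and 62.1 (-2.25). For Cxcl10, 15.9 and 95.7 CPM, 101 of the 154 M UMIs came from 1 cell, and for the tag-following S100a9, 341 and 1411 CPM, 1216 of 2271 did, leaving 655 CPM without it. Cxcl2 (2061 and 759) and Il1b (2100 and 779) had the same direction as in macrophages.

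Dendritic cells were few, 146 parental and 95 M cells, and their subsets differed in opposite directions. Of 4110 genes tested, 164 were past the fold higher in parental (3.99%) and 78 higher in M (1.9%). The tag-following genes were 21 of 164 and 8 of 78, against 5.67% and 3.14% of all tested genes. Genes of migratory dendritic cells, which mature and travel to the lymph node, were higher in parental for 7 of 17 tested and in M for none. Ccl17 and Ccl22, which attract T cells bearing Ccr4, had 2111 [2000, 2227] and 200 [164, 241] CPM (3.34) and 1588 and 263 (2.55), and the actin bundler Fscn1 991 and 207 (2.20), with 60 of its 115 M UMIs in 1 cell. Parental was above the other tumours for all 3. Ccl17 also had 2045 and 204 CPM in the Total libraries. Ccr7, the receptor that guides their migration, had 3912 and 3222 CPM (0.28) and was not past the fold. After thinning, 42.8% [34.4, 51.5] of parental (59 of 138) and 12.8% [6.77, 21.2] of M dendritic cells (12 of 94) had a UMI of Fscn1 or Ccl22 (unthinned 50.7% and 26.3%).

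Conventional type 1 dendritic cells, which cross-present antigen to CD8 T cells, were marked the other way. Of 9 tested genes of that list 4 were past the fold higher in M and none in parental: Clec9a, a receptor for dead cells (87.8 and 245 CPM), Xcr1 (64.3 and 151), Cadm1 (61.1 and 207) and Ppt1 (622 and 1316). Xcr1 is among the genes that follow the sample tags. A UMI of Xcr1 or Clec9a was found in 11.6% [6.77, 18.1] of parental (16 of 138) and 28.7% [19.9, 39.0] of M cells (27 of 94) after thinning (unthinned 19.9% and 44.2%). In macrophages of the same libraries, the thinned shares were 0.205% and 0.32% for Xcr1 or Clec9a and 0.614% and 0.280% for Fscn1 or Ccl22. Batf3, the factor these cells need, had 45.5 and 23.4 CPM and was not tested because of its level. Of 13 tested type I interferon response genes, 7 were past the fold higher in M and none in parental, with a list median of -1.17 against 0.05 over all tested genes. Irf7, the main regulator of that response, had 135 and 394 CPM (-1.48) and Isg15 127 and 297 (-1.17). For Usp18, 4.70 and 64.8 CPM, 17 of 36 M UMIs came from 1 cell. Tap1, the peptide pump of class I presentation, had 141 and 376 CPM (-1.35).

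Of 17 tested chemokine genes in dendritic cells, 11 were past the fold higher in parental and only Cxcl9 in M, at 21.9 and 88.2 CPM, with 22 of its 49 M UMIs in 1 cell. Ccl4, Ccl8 and Ccl12 were past the fold higher in parental, but their ratios in the Total libraries had the other sign. Mmp12 had 1655 and 84.6 CPM (4.14), but 479 of its 1056 parental UMIs came from 1 cell and 904 CPM remained without it. It follows the sample tags, and in the Total libraries it had 528 and 265 CPM (0.97). Ppbp, a platelet chemokine, had 147 CPM and no UMI in M, at least 27.3-fold higher, with 75 of 94 UMIs from 1 cell, and in the Total libraries its sign was the opposite. Mfge8 had 1138 and 104 CPM (3.33) and Pgf 169 and 10.8 (3.11), or 1.27 in the Total libraries. The genes ranked highest for M were the calprotectin genes S100a8 (229 and 1142 CPM) and S100a9 (235 and 1549), the serpin Serpina3g, Igf2r and Usp18. For Serpina3g, 33 of 52 M UMIs came from 1 cell, leaving 34.2 CPM without it against 7.84 in parental. The top M cell held 216 of 634 UMIs of S100a8 and 261 of 860 of S100a9. The granulocyte markers summed to 2445 and 4231 CPM in this class, with Ly6g at 0 in parental, and the macrophage markers to 10753 and 5102. Their part in the results was not tested.

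**Figure D4:**
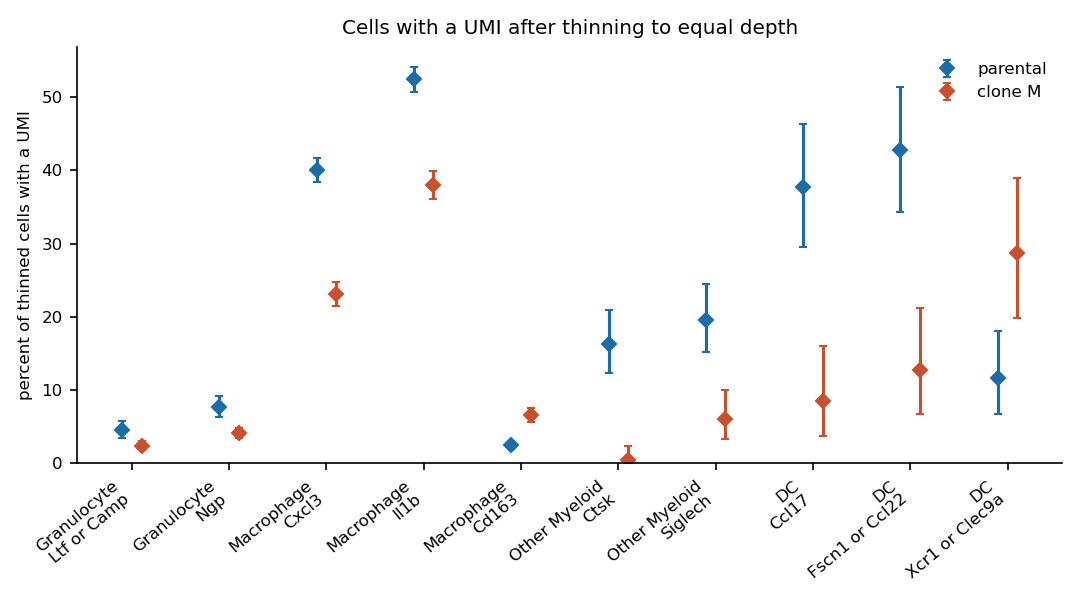
Percent of cells with a UMI of the named genes after each cell was thinned to 500 UMIs (granulocytes) or 1000 UMIs (other classes). Blue is parental and red is M, and bars are exact 95% binomial intervals that cover counting error only. Ctsk and Siglech in Other Myeloid and Fscn1 or Ccl22 in dendritic cells are higher in parental (42.8% against 12.8% for the last), while Xcr1 or Clec9a is higher in M.

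CD4 T cells as a whole differed in genes of naive cells and of activated, helper and regulatory cells, as their subtype mix did. Of 5227 genes tested, 235 were past the fold higher in parental (4.5%) and 278 higher in M (5.32%). Over all annotated T cells together it was 169 (3.23%) and 189 (3.61%) of 5234. When the 3 CD4 subtypes were given equal weight the counts were 111 and 90 of 5178. Of 15 tested genes of naive and memory T cells, 8 were past the fold higher in parental and none in M. Satb1, a chromatin organiser, had 2614 and 532 CPM (2.28), Lef1, a transcription factor of naive cells, 913 and 185 (2.24) and S1pr1, the receptor for leaving lymphoid tissue, 1244 and 470 (1.39). EM3 had values close to M for Lef1 (140) and Satb1 (521). The Cd8 genes summed to 205 and 88.7 CPM in this class, with Cd8b1 past the fold (147 and 54.3), and Cd4 had 509 and 921 CPM (-0.84). The part of cells with CD8 transcripts in these values was not tested. Of 18 tested regulatory T cell genes, 12 were past the fold higher in M, among them Il2ra, the interleukin-2 receptor alpha chain (548 and 1819 CPM), and Tnfrsf9 (1245 and 3910). Foxp3 itself had 409 and 735 CPM (-0.83). Of 10 tested T helper genes, 8 were past the fold higher in M, with Gata3, the factor of type 2 helper cells, at 331 and 1100 CPM (-1.70). Among cytokine genes of this class, 1 M cell held 330 of 463 M UMIs of Il13, 24 of 43 of Il4 and 37 of 60 of Ifng. Without its UMIs, Il4 had 25.2 and Ifng 30.4 CPM in M, below the 50 CPM needed for testing. How many of the 8 genes rest on that cell was not counted. Of 8 checkpoint genes 3 were higher in M, Pdcd1, which encodes PD-1, with 361 and 1340 CPM (-1.86), Lag3 and Cd200.

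The CD4 genes ranked highest for parental were Rflnb (322 and 23.8 CPM), Khdrbs3 (181 and 13.2), Ndrg3 (272 and 29.1), Actn1 (287 and 33.1), Pde5a (88.1 and 5.29), Ifngr2 (338 and 58.2), and Ctsk (88.1 and 1.32) and Mmp19 (275 and 45), which are genes of myeloid cells. The macrophage markers summed to 5378 and 2152 CPM in CD4 T cells, and 12 of 13 mitochondrial mRNAs were past the fold higher in parental. Their part was not tested. The tag-following genes were 18 of 235 and 34 of 278, against 7.81% and 3.69% of all tested genes. In the T and NK class of the Total libraries, 211 of the 235 and 247 of the 278 had the same sign, 49 and 99 were past the fold in the same direction, and 7 and 1 were past it in the opposite one. Among the genes ranked highest for M were Il13, Il3, Ccl1, Csf2, Il2, Hs3st1 and Lrrk2, most of them cytokines of activated helper cells. Il2, Hs3st1 and Lrrk2 follow the sample tags.

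Within the Cd44+ Cd4+ subtype (112 parental and 280 M cells), most of these cytokines came from a single M cell of 4162 UMIs. That cell held 165 of 165 UMIs of Il3, 86 of 87 of Il2, 330 of 462 of Il13, 101 of 140 of Csf2, 79 of 104 of Tnf and 37 of 41 of Ifng. Without it, Il3 was at 0 in both tumours and Il2 had 2.33 CPM in M and none in parental. Ifng then had 9.33 [2.54, 23.9] CPM in M against 30.6 [8.33, 78.3] in parental, which overlap. Il13, which acts in type 2 immunity, had 38.2 CPM in parental [12.4, 89.2] and 1067 in M, or 308 [258, 365] without that cell (-2.72). Ccl1 had 153 and 868 CPM, or 469 without it (-1.56).

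Il5, the growth factor of eosinophils, did not rest on that cell. It had 107 CPM [58.5, 180] in parental and 926 [838, 1021] in M (-3.00), from 5 and 26 cells with a UMI, 17 of the M cells with at least 5 UMIs. The other tumours had 205 to 734 CPM, so M was above and parental below all of them. Calca, which encodes the neuropeptide CGRP, had no UMI in parental and 143 CPM [110, 184] from 17 M cells, at least 6.24-fold higher, with 10 of 62 UMIs in the top cell. Gata3 had 795 [650, 963] and 1176 [1076, 1282] CPM (-0.56) and Il1rl1, the receptor of interleukin-33, 497 and 751 (-0.59), neither past the fold. Of 2670 genes tested in the subtype, 41 were past the fold higher in parental (1.54%) and 190 higher in M (7.12%), but M had more cells and so a lower floor. With the same floor of 229 CPM for both, the counts were 41 and 34 of 1109. Pdcd1 had 443 and 1296 CPM (-1.53) and Il2ra 466 and 1032 (-1.13). Mmp19, Trf, Arg1, Il1b and Lrrc32 were the genes ranked highest for parental, and the macrophage markers summed to 4717 and 1986 CPM in this subtype. Hs3st1, a sulfotransferase, had 7.64 and 182 CPM (-3.45). The tag-following genes were 1 of 41 and 36 of 190, Pdcd1, Il2 and Hs3st1 among the 36, against 2.51% and 6.97% of all tested genes.

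**Figure D5:**
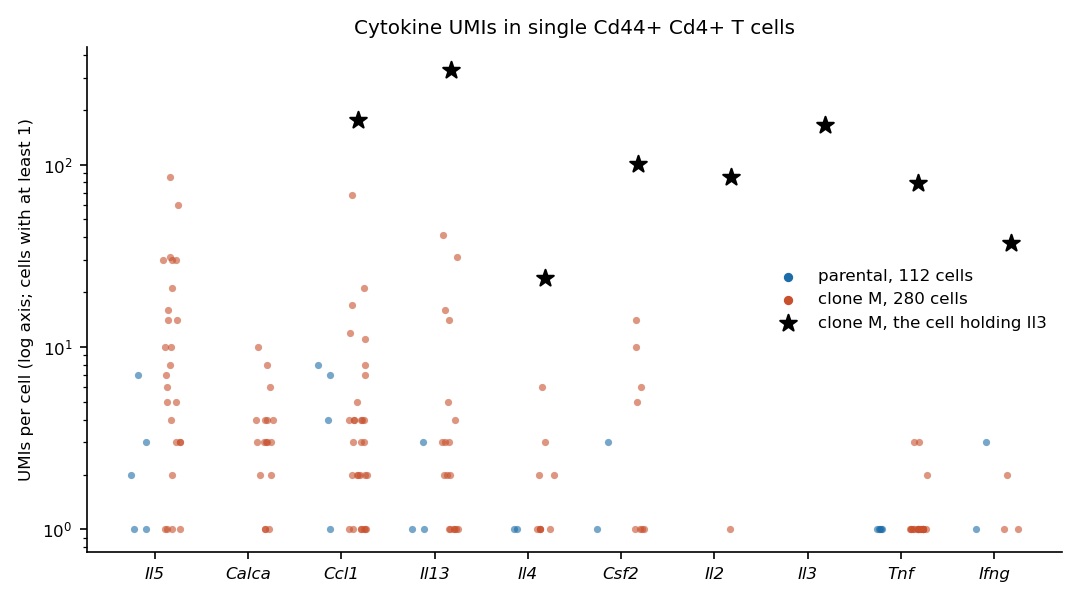
UMIs of 10 cytokine and neuropeptide genes in each Cd44+ Cd4+ T cell that had any, on a log axis, for parental (blue) and M (red). Stars mark the M cell that held all 165 UMIs of Il3. Il5 and Calca are spread over many M cells, Il2, Il3, Tnf and Ifng stand on the starred cell, and that cell holds 175 of 376 UMIs of Ccl1.

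In the Foxp3+ Cd4+ subtype (93 and 196 cells), Foxp3 had 2036 [1799, 2296] and 2052 [1884, 2232] CPM, Ctla4, an inhibitory receptor, 1470 and 1469, Il2ra 2710 and 3483 (-0.36) and Il1rl1 1982 and 1984. None of 17 tested regulatory T cell genes was past the fold, with a list median of -0.16 against -0.16 over all tested genes, and few of all genes were. Ctla4 was below the other tumours in both, at 2370 to 3055 CPM. Of 1777 genes tested, 22 were past the fold higher in parental (1.24%) and 65 higher in M (3.66%). With the same floor of 230 CPM for both it was 22 and 13 of 1025. The tag-following genes were 1 of 22 and 12 of 65, against 2.19% and 6.19% of all tested genes. Of 5 tested class II genes 4 were past the fold higher in parental, but 1 cell held 105 of 148 UMIs of H2-Aa and 125 of 222 of Cd74. Without it, H2-Aa had 329 CPM against 249 in M and Cd74 742 against 422. The macrophage markers summed to 4263 and 2433 CPM in this subtype and the B markers to 383 and 86.6, with Ms4a1, Pax5, Ighd and Fcer2a at 0 in both, and their part was not tested. The 58 parental UMIs of Il5 lay in 2 cells. Prdm1, the factor of effector lymphocytes, had 15.3 and 113 CPM (-2.28), and Akap12, Ighm, Nfat5, Phf1 and Sh2b1 were the others ranked, besides a feature with a retired identifier.

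Classes under 50 cells in a library are given by level only, except that genes with intervals apart were also counted in NK cells. In annotated CD8 T cells (36 and 130 cells), granzyme B, the main cytotoxic protease, Gzmb, had 609 CPM [429, 839] and 686 [583, 802], and Nkg7 had 971 [739, 1252] and 873 [756, 1002], so the intervals overlap. Pdcd1 had 1547 and 1654 CPM, below 2231 to 3329 in the other tumours, and Lag3, another inhibitory receptor, 132 [56.8, 259] and 195 [142, 261], below 510 to 916. The naive gene Lef1 had 411 [266, 607] and 143 [98.6, 201] CPM, higher in parental. Of the CD8 T cells, 8 parental and 63 M cells were of the Gzmb+ subtype and 28 and 67 of the Lef1+ subtype.

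NK cells (38 and 49 cells) carried more of several cytotoxic transcripts in the parental tumour. Of 11 genes of the cytotoxic effector list that met the level for testing, 8 had a counting interval in parental that lay above that in M, and none the reverse. Over all 528 genes at that level it was 38 (7.2%) and 36 (6.82%). These intervals take each UMI as independent, and how many of the 38 and 49 cells held the UMIs of these genes was not counted. Gzma, granzyme A, had 2214 CPM [1848, 2631] and 847 [674, 1051], Prf1, perforin, which was below the level for testing, 498 [333, 715] and 145 [79.1, 243], and Ccl5, an attractant of T cells, 5749 [5150, 6399] and 2438 [2137, 2770]. Both were below the range of E, EM1 and EM2 for Gzma (3389 to 4402), and EM3 had 1373. Ncr1, the NK receptor NKp46, had 172 [82.3, 316] and 186 [110, 294], and Klrk1, the receptor NKG2D, 206 [106, 360] and 444 [321, 598], which overlap. The granulocyte markers summed to 1201 and 3006 CPM in this class and the macrophage markers to 3758 and 1704, and their part in the result was not tested. The finer column calls 98 parental and 63 M cells NK, but 62 of the parental cells are Other Myeloid in the broader column, so the finer label was not used for NK genes. By it, 219 of 1902 genes tested were past the fold higher in parental (11.5%) and 150 higher in M (7.89%), and the former included 9 of 11 tested genes of plasmacytoid dendritic cells, among them Siglech and Ccr9. Of 13 tested cytotoxic effector genes by the finer label, 2 were past the fold higher in parental and 3 higher in M, with a list median of -0.05.

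B cells (224 and 43 cells) differed in subtype as well as number. The subtype Cd44-MHCIIhi held 200 of the parental cells, 89.3% [84.5, 93.0], and 19 of the M cells, 44.2% [29.1, 60.1], while Cd25+Cd69+ cells were 5 and 19. Ighm, the heavy chain of IgM, had 3698 CPM [3466, 3942] in parental and 12113 [11234, 13043] in M, and Ighd, that of IgD, 1174 [1044, 1315] and 1086 [834, 1389]. Vpreb3, a gene of developing B cells, had 58.9 [33.0, 97.1] and 620 [434, 859] CPM, from 15 and 36 UMIs, and EM3 had 561. H2-Ab1 had 5256 and 2361 CPM and Cd74 19385 and 10614. Fcer2a, the low-affinity IgE receptor of mature follicular B cells, had 192 CPM in parental and no UMI in M, at least 3.72-fold higher. The 8 B markers summed to 9461 and 21728 CPM and the macrophage markers to 8962 and 3946. Plasma cells were 2 and 0, and for 0 of 7505 cells the upper limit was 0.0491%.

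Across classes, only 3 genes of the 2280 tested in granulocytes, macrophages and CD4 T cells together were past the fold in the same direction in all 3 (0.132%), and all were higher in parental: Cxcl3, Mmp12 and Mmp19. Mmp19 had 309, 3014 and 275 CPM in the 3 parental classes and 90.6, 1268 and 45 in those of M. Cxcl3 had 1269, 1303 and 75.5 CPM and 357, 544 and 31.8. Mmp12 had 166, 1209 and 151 CPM and 26.5, 502 and 26.5. Ctsk, at 3807 CPM in parental Other Myeloid cells, had 26.6 to 99.5 CPM in parental granulocytes, macrophages, dendritic, T, NK and B cells. In M it had 0 to 17.2 CPM in these classes.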

How the data were processed

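Single-cell libraries were made from dissociated tumours, as Total and CD45-selected cells. The authors deposited unnormalised UMI counts, 1 table of genes by cells per library, made with Cell Ranger and genome mm10, per the submitters' processing notes, with the version and annotation not given in the sources used here. The deposited cell tables give UMI and gene counts, the percent of UMIs from mitochondrial genes and 2 columns of cell annotation by the authors. Both a fixed RNA kit and 3' reagents are named in the labels' protocols. The authors' cell limits are not given either, and the fewest genes per cell ranged from 200 to 650 over the 12 libraries.

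Doublets were called in each CD45 library by nearest neighbours among simulated pairs (2000 variable genes, 30 principal components, 2 pairs per cell), with an expected share of 6%, and 1.49% of parental and 1.19% of M cells were left out. Counts were summed per class and library and scaled to CPM, with a pseudocount of 10, and the scripts were tested on simulated data. Classes with fewer than 50 cells in either library had no gene-wide comparison by fold. NK cells depart from this rule in part, since genes whose counting intervals did not overlap were counted there over all genes at the level for testing. That count was not planned.

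The genes named were the 12 highest and 12 lowest log2 ratios past the fold in granulocytes and in macrophages. In CD4 T cells they were 8 and 8 and in other classes 5 and 5. Members of 47 gene lists were named besides, and 16 of the 47 are lists of cell type markers. The pair of tumours, its members and these lists were chosen with earlier results of these data known. T cell receptor and immunoglobulin variable genes were not named. A few genes that the rule would name are not reported here. Listed genes not analysed here are Ahsp, Azu1, Cx3cr1, Cxcl11, Ear1, Eno1, Ero1a, Gapdh, H2-L, Hba-a1, Hmgb2, Il22, Klra1, Klra4, Klra9, Klrb1c, Mx1, Mx2 and Rigi. Alternatives covered pseudocounts of 1 and 50, CPM minimums of 20 and 0, other scalings, cells thinned to 1000 UMIs, gene and UMI minimums, all deposited cells and the Total libraries. Python 3.11.15, numpy 2.4.6, pandas 2.3.3, scipy 1.17.1, scikit-learn 1.9.0 and matplotlib 3.10.9 were used.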

Additional observations from a re-analysis of the deposited data

Results flagged for a closer look

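Granulocytes, macrophages, Other Myeloid cells, dendritic cells and CD4 T cells as a whole were searched for genes past the fold in opposite directions, and the subtypes of CD4 T cells were not. Of the genes of the fixed lists, cell type markers left aside, 12 had such log2 ratios of parental over M. The share over all genes tested in these classes was not counted, so this number is a description only. The difference between the classes was not tested, with 1 tumour a side.

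In 9 of them dendritic cells stood against another class. Ccl5, a T cell attractant, was 3.07 in dendritic cells (1055 and 117 CPM) and -1.82 in CD4 T cells (165 and 608 CPM). Tnfrsf9, the costimulatory receptor 4-1BB, was 2.14 in dendritic cells (867 and 189 CPM) and -1.64 in CD4 T cells (1245 and 3910 CPM). In macrophages Tnfrsf9 was higher in parental as well, at 1.51. Nt5e, the ectoenzyme CD73 that makes adenosine, was 1.53 in dendritic cells and -1.60 in CD4 T cells. Its ratio was 1.31 in macrophages and 1.5 in Other Myeloid cells, so the CD4 T cells went against all 3 myeloid classes named here. Cd200, a ligand that restrains myeloid cells, was 1.41 in dendritic cells and -1.53 in CD4 T cells, and Klf4, a transcription factor, was 1.04 and -1.23 in the same classes. In CD4 T cells Klf4 follows the sample tags. Cd163, the haemoglobin scavenger receptor, was 2.36 in dendritic cells and -1.37 in macrophages, and its dendritic cell value rests on 56 and 5 UMIs.

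The chemokines Ccl4, Ccl8 and Ccl12 were higher in parental dendritic cells and in Other Myeloid cells of M. Ccl8 was 2.39 and -2.15, Ccl12 was 2.63 and -1.51, and Ccl4 was 1.47 and -1.39. The dendritic cell values are thin: Ccl8 had 45 and 3 UMIs, Ccl12 33 and 0, and Ccl4, which follows the sample tags in dendritic cells, 43 and 10. In the Total libraries the dendritic cell ratios of Ccl8 (-0.36), Ccl12 (-0.30), Ccl4 (-0.63) and Cd163 (-0.19) had the other sign. The macrophage markers were also higher in parental dendritic cells, at 10753 and 5102 CPM, and their part in these values was not tested.

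S100a4, a calcium-binding protein of motile cells, was 2.50 in Other Myeloid cells (1596 and 275 CPM) and -1.30 in CD4 T cells (375 and 940 CPM). Plac8 was 1.11 in Other Myeloid cells and -1.24 in CD4 T cells. The heat shock gene Hspa1a was 2.26 in granulocytes (395 and 74.9 CPM) and -1.09 in Other Myeloid cells (165 and 362 CPM). In granulocytes the other 4 tumours had 172 to 413 CPM of Hspa1a, so parental lay inside their range and M below it.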

How the results depend on the processing

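No paired analysis was possible because each side is 1 tumour with 1 CD45 library, so nothing can be left out or blocked either. Values are parental minus M in percentage points for shares, and parental over M for log2 ratios. Among cells with at least 650 genes the granulocyte difference was -20.5, NK -0.43 and T -0.24 [-1.59, 1.11], the last from 2.76. Among cells with at least 1000 UMIs granulocytes were at -27.5, macrophages at 24, B cells at 1.95 and T cells at -1.02 [-2.17, 0.134]. Under both limits the sign of the T cell difference turned, but its interval includes 0. Of cells other than granulocytes with that depth, macrophages were at 4.52, T cells at -5.62 and B cells at 1.85. With the finer annotation NK cells were at 0.63 of all cells and 0.25 of cells other than granulocytes, turned from -0.085 and -0.57. The interval of the value 0.25, [-0.343, 0.827], includes 0. In the Total libraries, over the classes both annotations hold, granulocytes were at -34.0, macrophages with Other Myeloid at 26.5, dendritic cells at 0.21 and B cells at 4.07. The fewest genes per cell in these libraries were 650 in parental and 451 in M, and the part of this in the shares was not tested. Of cells other than granulocytes there, macrophages with Other Myeloid were at 3.32 (-0.29 in the CD45 libraries), T with NK at -6.71, dendritic cells at -0.78 (0.33 in the CD45 libraries) and B cells at 4.16. The granulocyte, macrophage and B cell shares of all cells kept their direction under every alternative.

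Of granulocyte genes, 87 were past the fold higher in parental and 36 in M. At a pseudocount of 1 it was 56 in M, at 50 it was 34 and 8, with ratios centred on the median 22 in M, and in the Total libraries 181 and 95. In granulocytes thinned to 1000 UMIs it was 53 and 178, or 53 and 120 with an equal floor, so the balance turned. At a pseudocount of 50, macrophages had 18 higher in parental and 6 in M (35 and 22 before), and CD4 T cells 112 and 135 (235 and 278 before). With each CD4 subtype weighted equally CD4 T cells had 111 and 90, so the balance turned there too, and in the Total libraries 177 were higher in M. With an equal CPM floor on both sides the genes higher in M were 34 rather than 190 in Cd44+ Cd4+ T cells and 13 rather than 65 in Foxp3+ Cd4+ T cells. The equal floors, equal subtype weights and single-cell checks were chosen after seeing the data.

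Of 1364 ratios of named genes over the alternatives, 1355 kept their direction, 6 turned and 3 were at 0. The alternative pseudocounts and CPM minimums could not turn a ratio, and the genes were picked by their ratios in these same cells. Many of these directions were therefore fixed beforehand. In the Total libraries 79 of 84 ratios kept their direction. The exceptions in the Total libraries were Fam167a in granulocytes (0.45), Ppbp in dendritic cells (-0.90), Gzmc in T cells (0.18) and Il2 in T cells and in CD4 T cells (0.25 each). Without the M cell with most of its UMIs, Gzmc in T cells was 0.11, and Il3 was at 0 on both sides in T, CD4 T and Cd44+ Cd4+ T cells. Depth limits the small classes most: a gene needs 30 UMIs to be tested, and the summed UMIs of a class differ between the sides.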
